A study of Mus musculus with 23 samples.

Results

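Spink3 and Spink5 are mouse genes for secreted serine protease inhibitors of the Kazal type, and both were followed across the ventral prostate of intact and castrated mice on a folic acid enriched or a control diet. Both were chosen by name after earlier results of these data had shown them to be much lower after castration, so they are 2 members of the 20308 genes in the table. Both passed the filter on low counts, which kept 13412 genes. Because the castration comparisons were used to choose them, those comparisons are described here without a test, and the tests concern diet and the interaction of diet with castration.

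Kazal inhibitors hold a compact, disulphide-bonded fold with a loop that sits in the active site of a serine protease. Spink3, the mouse counterpart of human SPINK1, is known as the trypsin inhibitor of pancreatic acinar cells, and in mouse accessory sex glands as an androgen-induced secretory protein that binds sperm. Spink5 encodes LEKTI, a long precursor with many Kazal-type domains. LEKTI is best known in skin, where it restrains kallikrein-related peptidases during shedding of the cornified layer.

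RNA of the ventral prostate of C57BL/6J mice was sequenced after poly-A selection, in 23 libraries of 6 groups. The folic acid diet held 24 mg/kg folic acid and the control diet 4 mg/kg, and every mouse received its diet from before birth. Intact glands were collected at 7 weeks of age, or mice were castrated at that age and the gland was collected 3 or 10 days later. There were 4 libraries each of folic acid intact, control intact, folic acid 3 d, folic acid 10 d and control 10 d glands, and 3 of control 3 d glands. Per the labels, RNA came from 4 mice in each group, and every library was treated as coming from its own mouse. Castrated mice were older than intact mice by the days since surgery, and the labels name neither litters nor a sham-operated group. No allele or transgene is named.

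Total expected counts per library ran from 6.38 to 15.6 M. Transcripts of Sbp, the spermine-binding protein of the ventral prostate, made up 49.3 to 59.8% of the reads in folic acid intact libraries and 50.1 to 52.8% in control intact libraries. The Sbp share was 26.2 to 38.8% in folic acid 3 d libraries and 30.5 to 30.9% in control 3 d libraries, then 4.78 to 16.2% in folic acid 10 d libraries and 6.24 to 9.23% in control 10 d libraries. Levels are therefore given as CPM (counts per M reads) after scaling by TMM factors, which compare libraries over the bulk of the genes and ran from 0.553 to 1.70. Scaling by plain library totals would raise the log2 change of the median gene to 0.80 at 3 days and 1.31 at 10 days in folic acid mice, and to 0.73 and 1.15 in control mice. The 16 luminal epithelium markers summed to 5472 to 7088 CPM in folic acid intact libraries and 5010 to 5363 CPM in control intact libraries. After castration their sum was 5112 to 6930 CPM on the folic acid diet and 5536 to 6307 CPM on the control diet.

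Both genes lie on chromosome 18 of GRCm38 in the GENCODE M21 annotation. Spink3, annotated there as Spink1, spans positions 43728082 to 43737557 on the minus strand, and Spink5 spans 43963235 to 44022501 on the plus strand. Their start sites are 225.7 kb apart.

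Spink3 was among the most abundant transcripts of the intact gland and was nearly lost by 10 days after castration. On the folic acid diet its level was 15879, 20890, 22012 and 17890 CPM in the 4 intact libraries, 113.4, 194.9, 120.5 and 95.9 CPM at 3 days, and 12.2, 11.7, 16.9 and 18.4 CPM at 10 days. On the control diet it was 14670, 14141, 12991 and 7324 CPM in intact libraries, 153.0, 62.8 and 92.7 CPM at 3 days, and 13.5, 11.4, 10.3 and 10.2 CPM at 10 days. On each diet the 3 states did not overlap, and the highest 10 d library on either diet was below the lowest 3 d library on either diet. The genes were chosen for this fall, and how many of all tested genes separate in this way was not counted, so nothing is read from it. Spink3 took 0.959 to 1.34% of the reads in folic acid intact libraries and 0.489 to 1.03% in control intact libraries. By reads, 1 gene stood above it in each intact library, except in control intact replicate 4, where 2 did.

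The fitted change of Spink3 from the intact level was −7.19 ± 0.32 (log2, approximate SE) at 3 days and −10.34 ± 0.37 at 10 days on the folic acid diet. It was −6.90 ± 0.36 at 3 days and −10.08 ± 0.36 at 10 days on the control diet. The level left was 0.684% at 3 days and 0.0771% at 10 days on the folic acid diet, and 0.837% and 0.0922% on the control diet. From 3 to 10 days the level was lower by a further −3.15 ± 0.27 on the folic acid diet and −3.18 ± 0.28 on the control diet. On the log2 scale, 69.5% of the 10-day change on the folic acid diet was already present at 3 days, and 68.4% on the control diet. At 10 days Spink3 had rank 1 of 13412 genes on the folic acid diet, counted from the lowest log2 change, and rank 4 on the control diet.

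Spink5 was also lower at each step after castration, with a smaller change from intact than Spink3 at 3 and at 10 days on both diets. On the folic acid diet its level was 8003, 10263, 11779 and 4860 CPM in intact libraries, 1332, 2385, 2138 and 1448 CPM at 3 days, and 223.9, 19.4, 305.9 and 145.8 CPM at 10 days. On the control diet it was 7170, 6549, 5190 and 5473 CPM in intact libraries, 886.9, 1272 and 856.4 CPM at 3 days, and 155.4, 102.1, 193.9 and 113.0 CPM at 10 days. The 3 states did not overlap on either diet, from which, as for Spink3, nothing is read. The folic acid 10 d library of replicate 2, with 19.4 CPM and 247 reads of Spink5, was the lowest of all. That library also had the lowest Sbp share, 4.78%, and the highest TMM factor, 1.70, while its Spink3 level of 11.7 CPM was within 1 CPM of that of replicate 1 of its group. The part of these features in its low Spink5 was not tested.

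The fitted change of Spink5 from intact was −2.26 ± 0.51 at 3 days and −5.65 ± 0.60 at 10 days on the folic acid diet (log2, approximate SE). On the control diet it was −2.60 ± 0.58 at 3 days and −5.43 ± 0.59 at 10 days. Spink5 kept 20.9% of its intact level at 3 days and 1.99% at 10 days on the folic acid diet, and 16.5% and 2.32% on the control diet. The step from 3 to 10 days was −3.39 ± 0.54 on the folic acid diet and −2.83 ± 0.55 on the control diet. At 3 days, 39.9% of the 10-day log2 change of Spink5 was present on the folic acid diet, and 47.9% on the control diet. Spink5 had rank 33 of 13412 at 10 days on the folic acid diet and rank 66 on the control diet. Fewer cells of a type and less RNA per cell cannot be told apart in these bulk libraries.

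**Figure D1:**
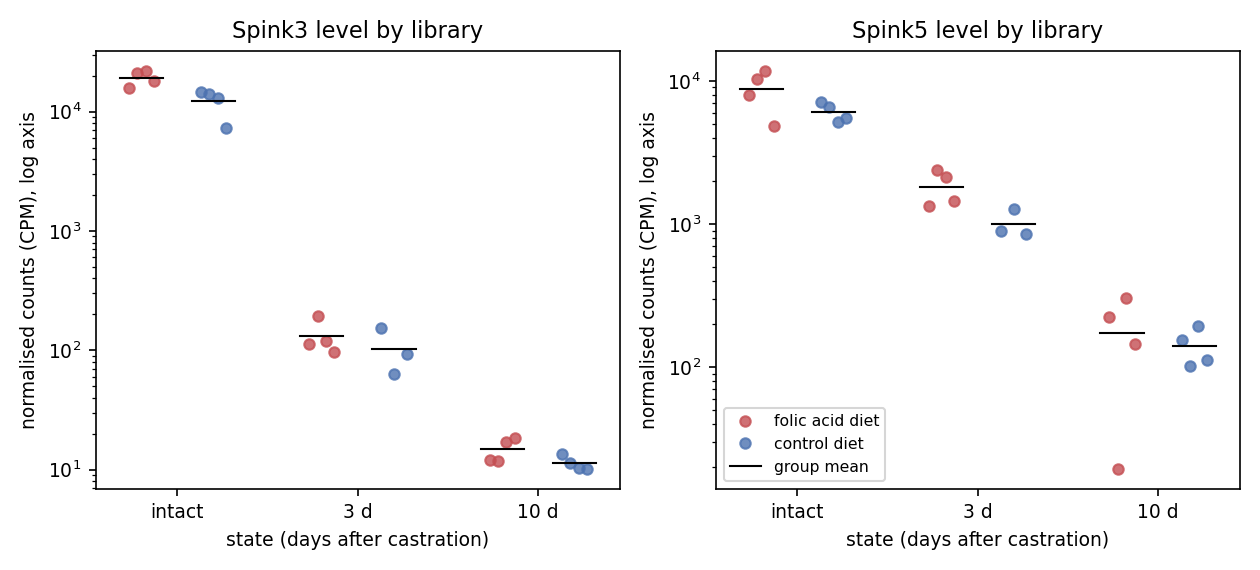
Levels of Spink3 and Spink5 in each of the 23 libraries, as normalised counts (CPM) on a log axis, by state and diet, with 1 point per library and a line at the group mean. Within each diet the intact, 3 d and 10 d libraries did not overlap for either gene, and 1 folic acid 10 d library had 19.4 CPM of Spink5. Both genes were chosen for their fall after castration, so nothing is read from this separation.

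These shares of genes called in the same comparisons are given as background, and nothing about the members is read from them. At 3 days, 8.27% of the tested genes were called lower and 6.07% higher on the folic acid diet, and 6.15% lower and 3.83% higher on the control diet. At 10 days, 11.7% were called lower and 10.2% higher on the folic acid diet, and 9.45% lower and 7.15% higher on the control diet. A call is an adjusted p under 0.05. How many of all tested genes had states that did not overlap was not counted.

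Which of the 2 inhibitors had more reads differed between castrated and intact glands. The ratio of Spink5 to Spink3 reads, which does not depend on scaling between libraries, was 0.504, 0.491, 0.535 and 0.272 in folic acid intact libraries and 0.489, 0.463, 0.400 and 0.747 in control intact libraries. At 3 days the ratio was 11.7, 12.2, 17.7 and 15.1 on the folic acid diet, against 5.80, 20.3 and 9.24 on the control diet. It was 18.4, 1.66, 18.1 and 7.93 at 10 days on the folic acid diet, against 11.5, 8.99, 18.8 and 11.1 on the control diet. Every intact library therefore held more Spink3 than Spink5 reads, and every castrated library more Spink5 than Spink3 reads. The 3 d and 10 d ratios overlapped on both diets.

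**Figure D2:**
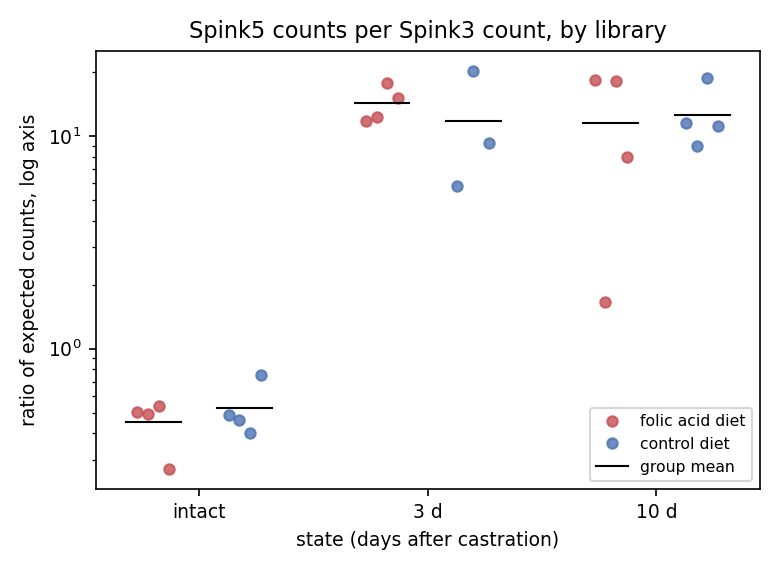
Ratio of Spink5 to Spink3 expected counts in each library on a log axis, by state and diet, with 1 point per library and a line at the group mean. Intact libraries sit between 0.272 and 0.747, and castrated libraries between 1.66 and 20.3.

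Spink5 has the longer transcript, so the levels were also compared per kilobase, with the longest coding transcript of each gene in GENCODE M21, 729 bases for Spink3 and 4785 for Spink5. Per kilobase, Spink3 stood at 26294 ± 3840 CPM and Spink5 at 1824 ± 629 CPM in folic acid intact libraries (SD, n = 4). In control intact libraries Spink3 stood at 16847 ± 4634 and Spink5 at 1274 ± 193 CPM per kilobase (SD, n = 4). In intact glands the Spink3 level per kilobase exceeded that of Spink5 by 12.3 to 24.2 times on the folic acid diet and by 8.78 to 16.4 times on the control diet. At 3 days the Spink5 level per kilobase was 1.79 to 2.70 times that of Spink3 on the folic acid diet and 0.883 to 3.09 times on the control diet. At 10 days it was 0.253 to 2.80 times on the folic acid diet and 1.37 to 2.86 times on the control diet. The order of the members per kilobase was thus uniform over the intact libraries but not over the castrated ones.

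Folic acid did not give a called difference in either gene in any state. In intact glands Spink3 averaged 19168 ± 2799 CPM on the folic acid diet and 12282 ± 3378 CPM on the control diet (SD, n = 4 each). The groups did not overlap, with the lowest folic acid library at 15879 CPM and the highest control library at 14670 CPM. How many of all tested genes separated by diet in this way was not counted, so nothing is read from it. The log2 difference was 0.64 ± 0.25 (SE, 95% interval 0.14 to 1.143), with an unadjusted p of 0.0136 and an adjusted p of 0.719 by edgeR's quasi-likelihood test with Benjamini-Hochberg adjustment over all tested genes. In that comparison 0.0522% of all tested genes were called, which is 7 genes.

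At 3 days Spink3 averaged 131.2 ± 43.7 CPM on the folic acid diet (SD, n = 4) and 102.8 ± 45.9 CPM on the control diet (SD, n = 3), with overlapping groups. The log2 difference was 0.35 ± 0.27 (SE, edgeR adjusted p = 0.883). It was 0.76 without control 3 d replicate 1 and 0.096 without control 3 d replicate 3, so its size rests on the 3 control libraries. At 10 days Spink3 averaged 14.8 ± 3.36 CPM on the folic acid diet and 11.3 ± 1.56 CPM on the control diet (SD, n = 4 each), a log2 difference of 0.38 ± 0.26 (SE, edgeR adjusted p = 1). Averaged over the 3 states the difference was 0.46 ± 0.15 (SE), with an unadjusted p of 0.00435 and an adjusted p of 0.312 by edgeR. Spink3 was thus on the higher side on the folic acid diet in each state, but no state and no average passed the adjustment.

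Spink5 averaged 8726 ± 3009 CPM in folic acid intact glands and 6096 ± 925 CPM in control intact glands (SD, n = 4 each), with overlapping groups. The log2 difference was 0.52 ± 0.49 (SE, edgeR adjusted p = 0.904), and 0.34 without folic acid intact replicate 3. At 3 days Spink5 averaged 1826 ± 515 CPM on the folic acid diet (SD, n = 4) and 1005 ± 232 CPM on the control diet (SD, n = 3). These groups did not overlap, with the lowest folic acid library at 1332 CPM and the highest control library at 1272 CPM. Here too the number of all tested genes that separated by diet was not counted. The log2 difference of 0.86 ± 0.54 (SE) had an adjusted p of 0.857 by edgeR, and 0.0671% of all genes were called at that time. The fit shares its estimate of spread over all 6 groups. The Spink5 SEs in intact and 3 d glands therefore also take in folic acid 10 d replicate 2, with 19.4 CPM. Over the settings other than leaving out a single library, the 3 d difference was 0.74 to 0.95, with edgeR or DESeq2 adjusted p of 0.368 to 0.977.

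At 10 days Spink5 averaged 173.8 ± 121.9 CPM on the folic acid diet and 141.1 ± 42.1 CPM on the control diet (SD, n = 4 each), and the folic acid libraries spanned the whole range of the control libraries. The log2 difference was 0.30 ± 0.49 (SE, edgeR adjusted p = 1), with 0.119% of all genes called. It was 0.67 without folic acid 10 d replicate 2 and turned to −0.12 without folic acid 10 d replicate 3. Averaged over the states the Spink5 difference was 0.56 ± 0.29 (SE, 95% interval −0.06 to 1.18, edgeR adjusted p = 0.737), with 0.35% of all genes called. Without folic acid 10 d replicate 2, the library with 19.4 CPM, that average was 0.68 and passed the test, with an edgeR adjusted p of 0.0466, where leaving out each of the 23 libraries in turn gave adjusted p of 0.0466 to 0.917. With all 23 libraries no diet effect in Spink5 was thus called over the states, and the only setting that called it left out this 1 library. The share of all tested genes called in that refit is not given here.

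**Figure D3:**
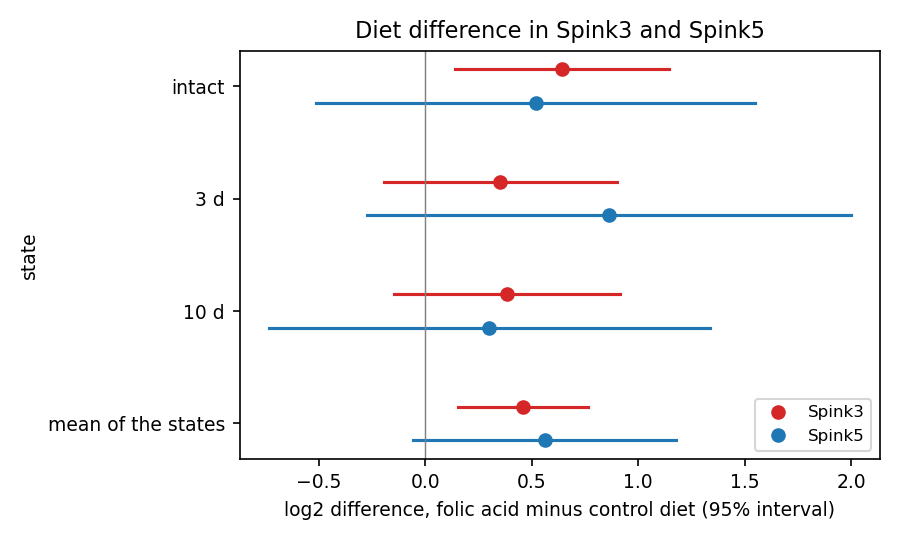
Difference in level between the folic acid and the control diet, as log2 change, for Spink3 and Spink5 in each state and averaged over the 3 states, with points for the estimates and lines for the 95% intervals. All estimates are above 0, and the intervals of Spink3 in intact glands and of the Spink3 average leave out 0 before adjustment.

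The change after castration was not shown to depend on diet for either gene. The interaction is the castration change on the folic acid diet minus that on the control diet. For Spink3 it was −0.29 ± 0.36 at 3 days and −0.26 ± 0.36 at 10 days (log2, SE), with edgeR adjusted p of 0.998 and 0.935. For Spink5 it was 0.34 ± 0.72 at 3 days and −0.22 ± 0.70 at 10 days, with edgeR adjusted p of 0.998 and 0.984. At 3 days 0% of all genes were called by edgeR, with 650 at an unadjusted p under 0.05 and 3 called by DESeq2, and at 10 days 0.0149% were called by edgeR. The standard errors leave room for interactions of moderate size, above all in Spink5.

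Within a state, the libraries with more Spink3 were not reliably those with more Spink5. Across the 8 intact libraries Pearson's r of the log2 levels was 0.636 (exact permutation p = 0.0596, adjusted over the 3 states 0.179) and Spearman's rho 0.619 (exact permutation p = 0.115, adjusted 0.345). Without the 2 libraries farthest from the median of Spink3, r was 0.530. Across the 7 libraries at 3 days r was 0.379 (exact permutation p = 0.408, adjusted 0.446) and rho 0.536 (exact permutation p = 0.236, adjusted 0.354), and r was −0.0597 without the 2 farthest. Across the 8 libraries at 10 days r was 0.315 (exact permutation p = 0.446, adjusted 0.446) and rho 0.381 (exact permutation p = 0.360, adjusted 0.360), and r was −0.00138 without the 2 farthest. Both diets enter each of these values.

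The genes whose levels ran most like each member over the 23 libraries were found by Pearson's r of log2 CPM, a description that is dominated by the 3 states. Among the closest to Spink3 were Mat2a with r of 0.984, Adi1 with 0.982, Abo with 0.981, Surf4 with 0.971 and Bmpr1b with 0.970. Mat2a makes the methyl donor S-adenosylmethionine, Adi1 acts in methionine salvage, Abo is a glycosyltransferase of blood group antigens, and Surf4 is a cargo receptor of the endoplasmic reticulum. Bmpr1b is a receptor for bone morphogenetic proteins. The log2 change of these 5 genes at 10 days ran from −6.03 in Abo to −1.61 in Surf4 on the folic acid diet, and from −6.80 in Abo to −1.68 in Surf4 on the control diet, smaller in size than the −10.34 and −10.08 of Spink3.

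For Spink5 the closest gene was Sbp, with r of 0.980. It was followed by Pycr1 with 0.966, Bhlha15 with 0.963, Pdxdc1 with 0.952, Aldh7a1 with 0.948 and Gga2 with 0.947. Pycr1 makes proline, Bhlha15 is a transcription factor of secretory cells, Aldh7a1 acts in lysine breakdown, and Gga2 sorts cargo at the Golgi. Sbp changed by −1.53 at 3 days and −3.53 at 10 days on the folic acid diet, while on the control diet it changed by −1.49 and −3.78. Its step after 3 days was larger than that before, but over a longer interval. With library totals as the scale Pdxdc1 turned higher after castration in all 4 comparisons, and Gga2 in 3 of them, all but 10 days on the control diet. Aldh7a1 turned higher at 3 days on the folic acid diet. Spink3 and Spink5 themselves had r of 0.913 over the 23 libraries, rank 154 among the genes compared with Spink3 and rank 49 among those compared with Spink5.

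**Figure D4:**
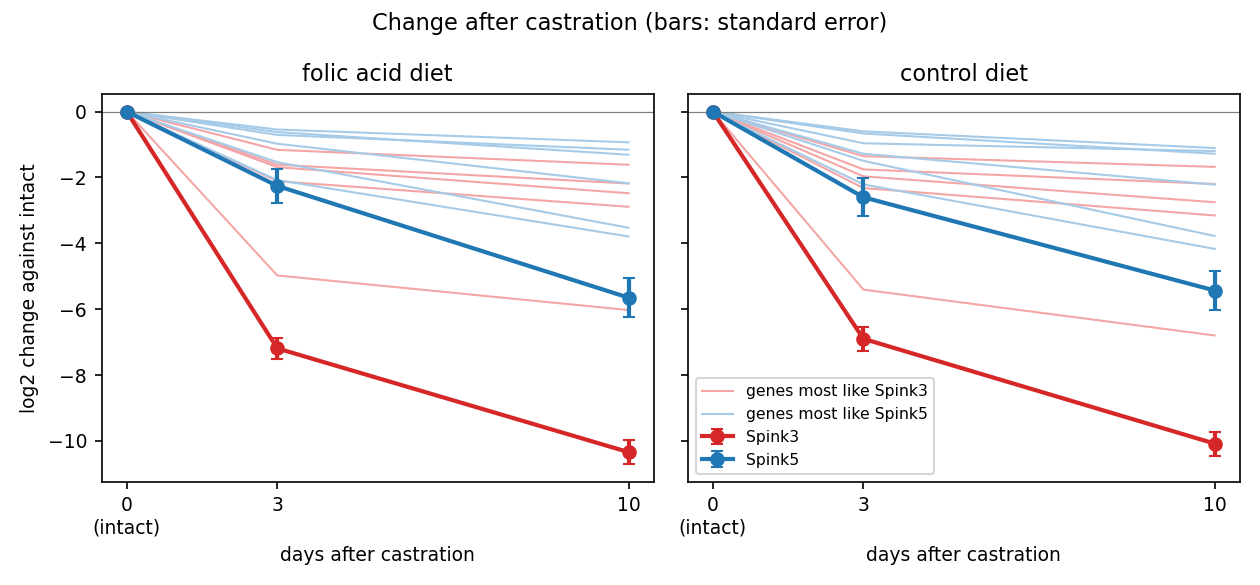
Log2 change in level against intact glands at 3 and 10 days after castration, on each diet, for Spink3 and Spink5 with bars of 1 approximate standard error, and as thin lines for genes whose levels ran most like each member over the 23 libraries. At 3 days Spink3 is at −7.19 on the folic acid diet and −6.90 on the control diet, while Spink5 is at −2.26 and −2.60 and comes to −5.65 and −5.43 by 10 days.

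The other Spink genes were close to absent from this tissue. The table held 11 of them, and none passed the filter on low counts. Spink4, Spink6, Spink7, Spink10 and Spink13 had no read in any library. Spink8 reached 23 reads in its highest library, Spink2 12, Spinkl 8, Spink11 and Spink12 3 each, and Spink14 2. Several of these, namely Spink6, Spink11, Spink12, Spink14 and Spinkl, have start sites within 500 kb of a member. In all, 14 other genes of the table start within that distance, of which 3 had no read in any library and 3 were tested.

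Among the 3 tested neighbours, Dpysl3, which acts on the neuronal cytoskeleton, changed by −0.91 ± 0.78 at 10 days on the folic acid diet (edgeR adjusted p = 0.439) and fell by 2.48 on the control diet (edgeR adjusted p = 0.0364), where it was at −1.37 with library totals (edgeR adjusted p = 0.153). Eif3j2, which encodes a subunit of a translation initiation factor, fell by 0.70 at 10 days on the folic acid diet (edgeR adjusted p = 0.00212) and by 0.59 on the control diet (edgeR adjusted p = 0.0107), but with library totals as the scale it was higher by 0.54 and 0.51. Dcp2, an mRNA decapping enzyme, was not called in any comparison. The large losses of Spink3 and Spink5 were not matched in size by a tested neighbour.

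The protease and inhibitor system around the members was called about as often at 10 days as genes at large. Genes of 5 lists were pooled as 1. The lists were other proteins with a Kazal or Kazal-like domain, other serine protease inhibitors, serine proteases, protease-activated and epidermal growth factor receptors, and cornified epithelium genes. In all, 82 of these genes were tested. At 3 days 9 fell and 5 rose on the folic acid diet, while 2 fell and 2 rose on the control diet. At 10 days 8 fell and 11 rose on the folic acid diet, while 9 fell and 5 rose on the control diet. At 10 days the share called was 23.2% on the folic acid diet and 17.1% on the control diet, beside 21.9% and 16.6% of all tested genes. At 3 days it was 17.1% on the folic acid diet and 4.88% on the control diet, beside 14.3% and 9.98%. The median log2 change at 10 days was 0.22 on the folic acid diet and −0.01 on the control diet, beside 0.07 and 0.05 over all tested genes. With library totals as the scale the split at 10 days moved to 3 lower and 44 higher on the folic acid diet. On the control diet it moved to 4 lower and 30 higher. At 3 days it moved to 3 lower and 27 higher on the folic acid diet and 3 lower and 20 higher on the control diet. That scale called 9870 of all 13412 tested genes at 10 days on the folic acid diet and 9040 on the control diet. At 3 days it called 6592 and 5696 of them. Without the 4 libraries that had stood apart in earlier work on these data, 7 of the 82 were called at 10 days on the folic acid diet and 8 at 3 days on the control diet. Of all 13590 genes tested in that setting, 1327 and 1292 were called in these comparisons, against 2938 and 1339 of 13412 with all libraries. Leaving out folic acid intact replicate 2 alone gave 7 calls at 3 days and 9 at 10 days on the folic acid diet. Without folic acid intact replicate 3 these counts were 9 and 12. At 3 days on that diet they were 9 without folic acid intact replicate 1 and 9 without folic acid 3 d replicate 4. The share of all tested genes called with a single library left out is not given here. None of the 82 genes was called for diet by edgeR in any state, with 5, 8 and 5 at an unadjusted p under 0.05 in intact, 3 d and 10 d glands and 1 called by DESeq2 in intact glands.

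Of 22 tested genes of other Kazal-domain proteins, 2 fell and 2 rose at 10 days on the folic acid diet, and 2 fell and none rose on the control diet. Over all tested genes 11.7% were called lower and 10.2% higher at 10 days on the folic acid diet, and 9.45% and 7.15% on the control diet. The same shares stand beside the 10-day counts of inhibitors, proteases, receptors and cornified epithelium genes below. Nothing particular to a list is read from its count. Sparc, a matrix protein with a Kazal-like segment, averaged 77.6 ± 52.6 CPM in folic acid 10 d glands and 247.1 ± 114.1 CPM in folic acid intact glands (SD, n = 4 each), a log2 change of −1.67 (edgeR adjusted p = 0.0147). It averaged 54.2 ± 10.3 CPM in control 10 d glands and 343.8 ± 64.6 CPM in control intact glands (SD, n = 4 each), a change of −2.66 (edgeR adjusted p = 0.000632). Slco3a1, an organic anion transporter, fell by 1.05 at 10 days on the folic acid diet (edgeR adjusted p = 0.00219) and by 1.67 on the control diet (edgeR adjusted p = 8.2e-06), but was higher by 0.24 on the folic acid diet with library totals. On that scale Sparc was at −0.35 on the folic acid diet (edgeR adjusted p = 0.534) and Slco3a1 at −0.56 on the control diet (edgeR adjusted p = 0.0655), so that both calls were lost.

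Of 21 tested inhibitors outside the Kazal family, 1 fell and 2 rose at 10 days on the folic acid diet, and 3 fell and 1 rose on the control diet. Serpinb1a, an inhibitor of neutrophil proteases, ran against the Spink genes: it averaged 37.7 ± 16.6 CPM in folic acid 10 d glands and 8.90 ± 2.67 CPM in folic acid intact glands, a log2 rise of 2.10 (edgeR adjusted p = 2.26e-05). In control 10 d glands it averaged 37.0 ± 16.5 CPM, against 4.87 ± 0.564 CPM in control intact glands, a rise of 2.92 (SD, n = 4 each; edgeR adjusted p = 2.12e-07). Serpinb5, the epithelial serpin maspin, fell by 1.91 at 10 days on the control diet (edgeR adjusted p = 0.00722) and changed by −1.32 on the folic acid diet (edgeR adjusted p = 0.0501). With library totals it was at −0.80 on the control diet (edgeR adjusted p = 0.138). Wfdc3, of the whey acidic protein family, fell by 5.58 at 10 days on the control diet (edgeR adjusted p = 0.00864) and changed by −3.76 on the folic acid diet (edgeR adjusted p = 0.0657).

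The proteases that these inhibitors are best known to block were scarcely detected. Of 80 serine protease genes in the table, 33 had no read in any library, among them Prss1 and Prss2, the trypsin genes, and Klk5, and 23 were tested. Klk7 reached at most 10 reads and Klk14 10.1 expected reads in a library. Among the 23 tested proteases, 4 fell and 2 rose at 10 days on the folic acid diet, and 3 fell and 2 rose on the control diet. Prss53 fell by 2.82 at 10 days on the folic acid diet (edgeR adjusted p = 2.32e-05) and by 2.58 on the control diet (edgeR adjusted p = 6.63e-05). Tmprss4, a membrane-bound protease, fell by 2.67 on the folic acid diet (edgeR adjusted p = 5.87e-06) and by 1.31 on the control diet (edgeR adjusted p = 0.0122), where it was at −0.22 with library totals (edgeR adjusted p = 0.640). Tmprss2, an androgen-responsive protease of prostate epithelium in humans, changed by 0.23 on the folic acid diet (edgeR adjusted p = 0.335) and rose by 0.53 on the control diet (edgeR adjusted p = 0.0179). Tmprss11bnl rose by 1.88 on the control diet (edgeR adjusted p = 0.0315) and changed by 1.36 on the folic acid diet (edgeR adjusted p = 0.104).

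Of the 6 tested receptors, 2 rose and none fell at 10 days on the folic acid diet, and none passed on the control diet, where 1 had an unadjusted p under 0.05 and DESeq2 called 0. With library totals all 6 were called higher at 10 days on both diets, and 6 at 3 days on the folic acid diet and 3 on the control diet. On that scale 9870 of all 13412 tested genes were called at 10 days on the folic acid diet and 9040 on the control diet. At 3 days 6592 and 5696 of all tested genes were called, so nothing about receptors is read from these counts. At 3 days Erbb3, a receptor of the epidermal growth factor receptor family, rose by 0.75 on the folic acid diet (edgeR adjusted p = 0.00263) and by 0.59 on the control diet (edgeR adjusted p = 0.0355). Erbb3 is named here after its values were seen, as the single receptor that edgeR called at 3 days with TMM scaling. DESeq2 called 2 receptors at 3 days on the folic acid diet and 1 on the control diet. Of 10 tested cornified epithelium genes, 1 fell and 3 rose at 10 days on the folic acid diet, and 1 fell and 2 rose on the control diet. Tgm1, the transglutaminase of the cornified envelope, averaged 1.12 ± 0.801 CPM in folic acid 10 d glands, against 7.92 CPM in folic acid intact glands (means, SD in castrated glands, n = 4 each), a fall of 2.80 on the log2 scale (edgeR adjusted p = 0.00502). In control glands it fell by 2.54 (edgeR adjusted p = 0.0117). With library totals Tgm1 was at −1.62 on the folic acid diet (edgeR adjusted p = 0.0523) and −1.41 on the control diet (edgeR adjusted p = 0.0933). Dsc2, a desmosomal cadherin, averaged 38.2 ± 26.4 CPM in folic acid 10 d and 15.6 ± 3.11 CPM in folic acid intact glands, and rose (SD, n = 4 each; edgeR adjusted p = 0.00356). It also rose on the control diet, with 22.6 ± 3.09 CPM in control 10 d and 9.81 ± 2.82 CPM in control intact glands (SD, n = 4 each; edgeR adjusted p = 0.00857). Dsg1c, another desmosomal cadherin, stayed at a few CPM at most, with 2.02 ± 0.360 CPM in folic acid 10 d and 0.206 ± 0.290 CPM in folic acid intact glands (SD, n = 4 each; edgeR adjusted p = 0.0493). It had 2.86 ± 2.61 CPM in control 10 d and 0.134 ± 0.267 CPM in control intact glands (SD, n = 4 each; edgeR adjusted p = 0.0108).

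Markers of other tissue sources were measured beside the members. Of 11 seminal vesicle secretory genes, 2 had no read in any library, and the summed level of the 11 never exceeded 2.70 CPM, although the seminal vesicle is a known source of Spink3. The 11 anterior and dorsolateral prostate genes summed to 7475 to 8475 CPM in folic acid intact libraries, 875 to 1476 CPM in folic acid 3 d libraries and 309 to 637 CPM in folic acid 10 d libraries. On the control diet they summed to 6104 to 10256 CPM in intact libraries, 1058 to 1543 CPM at 3 days and 192 to 783 CPM at 10 days. None of the 11 was at 0 in all libraries. Their sum was thus also lower after castration, and its part in the Spink3 and Spink5 levels was not tested. The 14 macrophage markers summed to 58.2 to 103.9 CPM in folic acid intact libraries and 143.0 to 377.3 CPM in the castrated libraries of that diet. On the control diet they summed to 68.2 to 110.7 CPM in intact libraries and 168.1 to 286.8 CPM in castrated libraries. The 12 skeletal muscle markers summed to 4719 CPM in control intact replicate 2, whose Spink3 and Spink5 levels of 14141 and 6549 CPM lay within the range of the other 3 libraries of its group.

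Of 16 tested luminal genes, 5 fell and 3 rose at 10 days on the folic acid diet, and 3 fell and 5 rose on the control diet. Over all tested genes 11.7% were called lower and 10.2% higher on the folic acid diet, and 9.45% and 7.15% on the control diet. With library totals none of the 16 was called lower, and 12 were called higher on the folic acid diet and 13 on the control diet. On that scale 9870 and 9040 of all 13412 tested genes were called, so the shift in calls was not particular to luminal genes. Hoxb13, a prostate homeobox factor, fell by 1.22 at 10 days on the folic acid diet (edgeR adjusted p = 5.07e-05) and by 0.83 on the control diet (edgeR adjusted p = 0.00394). Spdef, a factor of secretory epithelium, fell by 1.32 on the folic acid diet (edgeR adjusted p = 1.09e-05) and by 0.93 on the control diet (edgeR adjusted p = 0.000989). With library totals Hoxb13 was higher by 0.01 on the folic acid diet and by 0.27 on the control diet, and Spdef was at −0.08 on the folic acid diet (edgeR adjusted p = 0.721) and higher by 0.18 on the control diet. Dpp4, a peptidase of the luminal cell surface, rose by 0.82 on the folic acid diet (edgeR adjusted p = 7.54e-05) and by 0.68 on the control diet (edgeR adjusted p = 0.000746).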

How the data were processed

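Values are expected counts, deposited by the authors as 1 table with a row per gene and a column per library. The submitters' processing notes list RSEM 1.2.3, bcl2fastq 2.17.1.14, Bowtie 0.12.9 and mm10. Annotation and strand setting: not given in the sources used here. Of its 24 value columns 1 matched no sample label and was not used. Its header reads as a further replicate of control 3 d, the group with 3 labelled libraries. The expected counts were rounded here, and 19.5% of values were not whole, with Spink3 in 9 and Spink5 in 18 of 23 libraries, so some reads may be shared between genes. Genes were filtered (minimum count 10, minimum total 15), scaled by TMM and fitted with edgeR 4.0.16 in R 4.3.3, with 1 mean per group over all 6 groups and the quasi-likelihood test. Adjusted p-values are Benjamini-Hochberg values over all tested genes. SE is the size of the log2 change divided by the root of the F statistic, which is an approximation. For the large castration changes these SEs are not comparable with those of the diet differences. For Spink3 at 10 days the SE was 0.37 on the folic acid diet and 0.36 on the control diet. It was also 0.36 for the interaction, which takes in the spread of both changes. Correlations use log2 CPM with a prior count of 2. The method was tested on simulated data. Alternatives were DESeq2 1.42.0, library totals, no filter, only the groups compared, a replicate block, and libraries left out.

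The members and the gene lists were chosen with earlier results of these data known. From each list, up to 4 called genes with the smallest p at 10 days on the control diet were named, at most 2 each way where both had calls. Some items are not reported here. Same-numbered libraries did not deviate together, so the numbers were not taken as pairs. P-values measure the spread between mice as labelled.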

Additional observations from a re-analysis of the deposited data

Results flagged for a closer look

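In 10 of 195 groups of 4 libraries examined, 1 library stood apart from the other 3. The 39 items examined share the same libraries, and how many such flags chance would give was not tested. A library counts as apart by its gap to the nearest one, as a part of the group's range. The Spink5 to Spink3 count ratio was 0.272 in folic acid intact replicate 4, against 0.491 to 0.535 in the others. Folic acid 10 d replicate 3 had 486.3 CPM of Mat2a, where its group otherwise had 338 to 355. Folic acid 10 d replicate 2, the library low in Spink5, had 56.6 CPM of Hoxb13, where the others had 122 to 128. Folic acid 10 d replicate 4 had 5.00 CPM of Wfdc3, where the others had 0.0951 to 0.866. In the control 10 d group, replicate 4 had 8.06 CPM of Slco3a1 and the others 10.97 to 11.2, and replicate 2 had 61.5 CPM of Serpinb1a and the others 25.7 to 31.1. Dsg1c stood at 0.535 CPM in control intact replicate 1 and had no read in the others. Skeletal muscle markers summed to 89.9 CPM in folic acid 3 d replicate 3 (11.3 to 19.5 in the rest of its group), 76.6 CPM in folic acid 10 d replicate 4 (1.05 to 10.7 in the rest) and 4719 CPM in control intact replicate 2 (79.7 to 138 in the rest).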

How the results depend on the processing

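Of the alternatives to the diet and interaction results of the 2 members, 219 kept direction and side of the threshold, 4 reversed and 1 became called. With library totals alone, the Spink3 castration change was −6.43 and −9.10 at 3 and 10 days on the folic acid diet, −2.68 between these times there, and −6.16 and −8.98 on the control diet. For Spink5 it was −1.46 at 3 days on the folic acid diet, and −1.87 and −4.32 at 3 and 10 days and −2.45 between them on the control diet. These 9 values moved by more than the spread between libraries, as the scale itself shifts, and 155 others did not. The Spink5 interaction at 10 days was 0.015 without the 4 libraries that had stood apart in earlier work, namely folic acid intact replicate 3, folic acid 10 d replicates 2 and 3 and control intact replicate 2. Leaving out 1 library at a time gave the Spink5 diet difference at 10 days as −0.12 to 0.67 and its average over states as 0.42 to 0.68. It gave the Spink3 interaction at 3 days as −0.56 to 0.11 and the Spink5 interaction at 10 days as −0.64 to 0.16. The causes were not tested. The correlation of the members at 3 and 10 days was −0.0597 and −0.00138 without the 2 farthest libraries, and 0.167 and 0.0310 with library totals.

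With the replicate block the Spink3 difference in intact glands was 0.67 (edgeR adjusted p = 0.607, with 0.318 to 1 over its alternatives), and no member call changed. Same-numbered libraries had correlations of deviations of −0.149 to 0.237, with a median of 0.0130, against −0.0100 for others. DESeq2 called 23, 28, 45 and 83 genes for diet in intact, 3 d and 10 d glands and on average, against 7, 9, 16 and 47. For the 82 genes of the 5 lists, DESeq2 called 20 and 23 at 3 and 10 days on the folic acid diet and 12 and 16 on the control diet, against 14 and 19 and 4 and 14. Over all 13412 tested genes DESeq2 called 2265 and 3380, and 1686 and 2506, against 1923 and 2938, and 1339 and 2226. Without the 4 libraries the list counts by edgeR were 14 and 7 on the folic acid diet and 8 and 17 on the control diet. Over all 13590 genes tested in that setting they were 1644 and 1327, and 1292 and 2201. Of all recounts of list calls, 594 stayed within 1.5 times and 171 did not. The Spink3 levels of 10.2 to 18.4 CPM at 10 days rest on 139 to 220 reads.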
